A study of Mus musculus with 4 samples.

Results

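Cells labelled as female germline stem cells had lower levels of the leukocyte signalling genes *Lcp2* and *Plcg2* after spermidine than in controls. These levels are relative to library size, and markers of oocytes and of ovarian somatic cells also differed between the groups. *Tespa1* was also called lower, but it passed the filter on low counts only through the controls. The set comprised 10 of 53291 features of the count table: the adaptors *Lcp2*, *Lat*, *Lat2* and *Tespa1*, the kinases *Syk* and *Btk*, the lipase *Plcg2*, the exchange factor *Vav1* and the phosphatases *Inpp5d* and *Ptpn6*. It was chosen by name, as adaptors, kinases and phosphatases that act directly below immune receptors. All 10 genes were found in the table by their RefSeq symbol. The labels describe the cells as female germline stem cells, cultured germ cell precursors, from the C57BL/6 strain after many passages. Spermidine was given for 4 h before 2 of the libraries, and 2 libraries served as control. Spermidine is a polyamine studied as an inducer of autophagy, and the labels state no dose. Whether replicates are independent cultures is not stated, and p-values thus reflect the variation among these 4 libraries alone, which may be technical. The labels' protocol, worded alike for all 4 libraries, names both a VAHTS and a NEB Next library kit and not which library had which, and the part of the kit in the values was not tested.

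Immune receptors of lymphocytes, mast cells, platelets and macrophages carry short tyrosine motifs that Src family kinases phosphorylate. Syk binds the phosphorylated motifs and phosphorylates the adaptors Lat, Lat2 and Slp-76, the protein of *Lcp2*, which hold phospholipase C gamma and Vav1 at the membrane. The lipase then releases calcium and diacylglycerol signals, with Btk as one of its activating kinases. The phosphatases Shp-1, from *Ptpn6*, and Ship-1, from *Inpp5d*, damp the cascade. These genes are known for their expression in blood cells, and germ cells are not a usual setting for them.

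The spermidine libraries held 787600 and 1718944 counts, against 7206176 and 7128901 in the control libraries. The row AY036118 took 29.6% and 30.7% of spermidine counts and 1.68% and 1.64% of control counts. Of 14 germline stem cell markers, 7 were tested, of which 5 were higher and 1 lower with spermidine, beside 24.8% and 3.99% of all tested genes. Of the 5, *Dppa3*, *Pou5f1*, *Uchl1* and *Cd9* passed the filter on low counts only through the spermidine libraries, which favoured a rise. *Pou5f1* had 0 counts in both controls. The lower gene, *Tex19.1*, had 36 and 25 counts with spermidine, against 1955 and 1770 in controls. The oocyte list also holds 1 of the 5, *Dppa3*. Reads that overlapped several transcript rows appear in no row of these genes: of their 41 rows, the 28 without a base of their own held 0 counts. A gene is therefore seen only through bases that belong to a single row, called own bases here, and 6 of the 10 genes had at least 300 of them. The germ cell helicase *Ddx4* had 1 and 0 counts with spermidine and 0 and 0 in controls on 434 own bases. *Dazl*, another germ cell gene, had 2 and 0 with spermidine and 0 and 1 in controls on 432, and these counts do not cover the rest of either gene. Levels are given in CPM, the count scaled to the TMM-adjusted library total, and levels between genes as CPM per kb of own bases. A floor of 3 counts equals 3.43 and 2.14 CPM in the spermidine libraries, against 0.435 and 0.434 CPM in the controls.

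**Figure D1:**
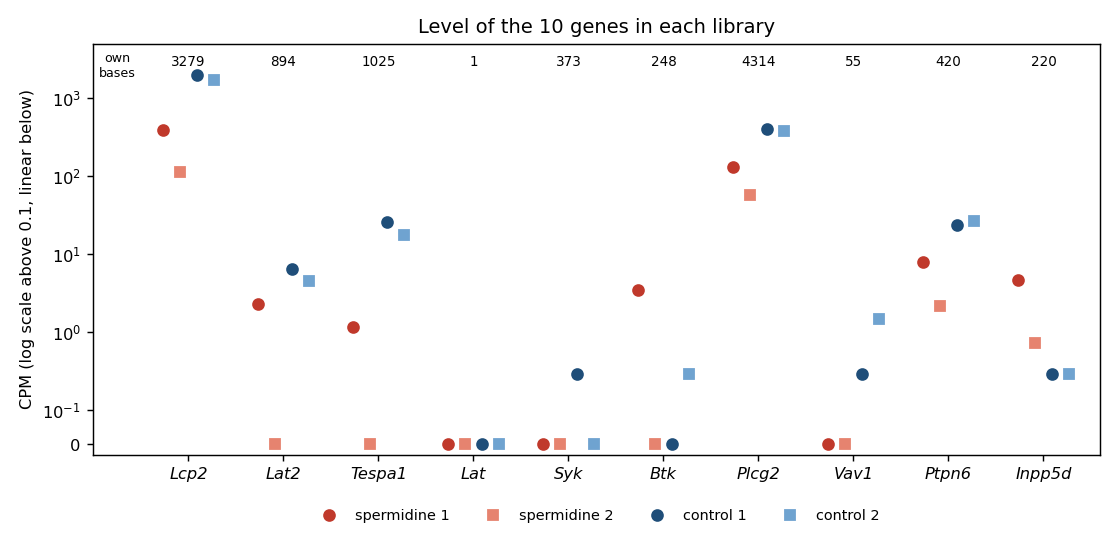
CPM of each of the 10 genes in the 2 spermidine and 2 control libraries, on a log axis above 0.1 CPM with 0 at the bottom, and the own bases of each gene along the top. Both spermidine points lie below both control points for all 5 genes that could be tested, as they do for 29.6% of all tested genes. *Tespa1*, *Lat2* and *Ptpn6* could be tested only through the controls, which favoured a fall. The points of *Vav1* are also in this order, but its 0 and 0 against 2 and 10 counts were too few to test.

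*Lcp2* encodes Slp-76, the scaffold that joins Lat to the lipase and to Vav1, and it had the highest level of the set. It held 339 and 160 counts with spermidine, against 13868 and 12027 in controls. The corresponding levels were 388 and 114 CPM with spermidine and 2009.7 and 1740.3 CPM in controls, or 251 ± 194 and 1875 ± 190.5 CPM (SD, n = 2 each). The groups did not overlap, although the spermidine libraries also differed from each other more than 3-fold. The log2 fold change was -2.92 ± 0.71 (SE), or 7.54 times lower with spermidine (edgeR's quasi-likelihood test, Benjamini-Hochberg adjusted p = 0.0144). *Lcp2* has a single transcript row of 21 exons on the plus strand of chromosome 11 (GRCm38), and 3279 of its 3348 bases are its own, so its counts can come from nearly the whole transcript. The rest overlaps an antisense noncoding row in the last exon, and whether strand was used in counting is not stated. Its adjusted p was 0.119 without control replicate 1 and 0.0738 without control replicate 2. It was 0.0710 with a filter of 1 CPM in all libraries and 0.0684 at equal depth without AY036118.

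*Tespa1*, an adaptor known from developing thymocytes, had 1 and 0 counts with spermidine, against 178 and 123 in controls. Its levels were 1.14 and 0 CPM with spermidine and 25.8 and 17.8 CPM in controls, with no overlap. At the control level the spermidine libraries together would have held 49.7 counts where 1 was seen. The pooled ratio of spermidine to control was 0.0201 (95% exact interval 0.000508 to 0.113, counting error only), and the fitted log2 fold change of -5.53 ± 1.54 (SE; adjusted p = 0.0255) depends on the prior count. Its 1025 own bases all belong to 1 model transcript on chromosome 10, and 827 of them, from 130362643 to 130363469 on the plus strand (GRCm38), lie in its last exon. The call of *Tespa1* was lost without spermidine replicate 1 (adjusted p = 0.0767) or control replicate 1 (0.117), and with scaling by library totals (0.0573).

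*Lat2*, which encodes the adaptor Ntal of mast cells and B cells, had 2 and 0 counts with spermidine, against 44 and 31 in controls. The pooled ratio was 0.162 (95% exact interval 0.0192 to 0.604, counting error only), with 2 counts seen where 12.4 would match the control level. The difference was not called (log2 fold change -2.57 ± 1.42 SE, adjusted p = 0.206). Its 894 own bases lie in exon 1 of 1 model transcript, from 134613995 to 134614888 on the minus strand of chromosome 5 (GRCm38), and in no exon of the other rows of *Lat2*. The values of *Lat2* therefore describe that stretch and not the whole gene. *Lat*, the related adaptor of T cells and mast cells, had 1 own base in 4 rows and 0 counts in every library, which says nothing of its expression.

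The kinases could not be tested. *Syk*, the kinase that binds the receptor motifs, had 0 and 0 counts with spermidine and 2 and 0 in controls on 373 own bases. Those bases belong to 2 model transcripts that are shorter than the other 4 rows of the gene. *Btk*, the Tec family kinase of B cells and myeloid cells, had 3 and 0 counts with spermidine and 0 and 2 in controls on 248 own bases. Both genes are at or under the floor of 3 counts in each group, so no fold is given.

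*Plcg2* encodes the phospholipase C gamma of B cells, mast cells and platelets. It held 114 and 80 counts with spermidine, against 2787 and 2623 in controls, or 93.7 ± 51.9 and 391.7 ± 17.2 CPM (SD, n = 2 each). Both spermidine libraries lay below both controls, and the spread within spermidine was wider. The log2 fold change was -2.09 ± 0.59 (SE), or 4.25 times lower (adjusted p = 0.0273). The call was lost when spermidine replicate 1 was left out (0.0522), and likewise for either control (0.239 without replicate 1, 0.186 without replicate 2). It was also lost with scaling by library totals (0.0598), a filter of 1 CPM in all libraries (0.110) or equal depth without AY036118 (0.205). *Plcg2* has 1 row of 33 exons on the plus strand of chromosome 8, all of it own bases.

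*Plcg1*, the lipase of most other cell types, was close to *Plcg2* in the controls and gives a reference within each library that needs no scaling. There were 0.770 and 0.271 *Plcg2* counts per *Plcg1* count with spermidine, against 1.27 and 1.07 in controls. *Plcg1* itself had a log2 fold change of -0.82 ± 0.50 (SE), which was not called (adjusted p = 0.254). *Lcp2* counts per *Plcg2* count were 2.97 and 2.00 with spermidine and 4.98 and 4.59 in controls. Neither pair of groups overlapped, but 2 libraries against 2 cannot give an exact two-sided permutation p below 0.333, the value of both comparisons among the 4 ratios computed. For the other 2 ratios, *Lcp2* to the adaptor gene *Hcls1* had p = 0.333 and *Ptpn6* to *Plcg2* p = 0.667 by the same exact test, so p adjusted over the 4 could not be lower.

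*Vav1*, the exchange factor that activates Rac, had 0 and 0 counts with spermidine and 2 and 10 in controls on 55 own bases. At the control level the spermidine libraries together would have held 1.98 counts, below the floor of 3, so a difference in *Vav1* was not detectable at this depth.

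*Ptpn6* encodes Shp-1, the phosphatase recruited by inhibitory receptors. It had 7 and 3 counts with spermidine, against 163 and 186 in controls, or 5.07 ± 4.15 and 25.3 ± 2.33 CPM (SD, n = 2 each). The groups did not overlap, but the log2 fold change of -2.47 ± 0.94 (SE) was not called (adjusted p = 0.0789). The own bases of *Ptpn6* are its 2 alternative first exons on the minus strand of chromosome 6 (GRCm38), which in mouse and human are known to be used in blood cells (the downstream exon) and in epithelial cells (the upstream exon). The downstream exon, from 124732946 to 124733154, held 6 and 3 counts with spermidine and 163 and 186 in controls. The upstream exon, from 124738499 to 124738709, held 1 and 0 with spermidine and 0 and 0 in controls. Every control read assigned to *Ptpn6* thus lay on the downstream exon, with 209 bases, while the upstream exon has 211.

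**Figure D2:**
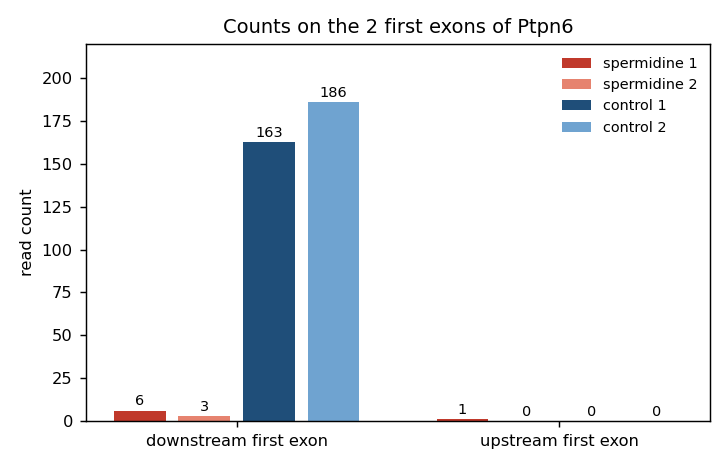
Read counts on the own bases of the downstream and the upstream first exon of *Ptpn6* in the 2 spermidine and 2 control libraries. The control bars of 163 and 186 stand on the downstream exon, and the upstream exon has 1 count in all.

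*Inpp5d*, which encodes the lipid phosphatase Ship-1, was seen through the 220 own bases of 1 short model transcript and had 4 and 1 counts with spermidine and 2 and 2 in controls. It was not tested. Among the 10 genes, it was with *Btk* the only one with more counts in the spermidine libraries than in the controls despite their lower depth, and in both genes most of these counts were in spermidine replicate 1. That library also held counts on 868 of 1381 olfactory and vomeronasal receptor models, against 124 in spermidine replicate 2 and 24 and 62 in the controls. At its density of 3.18 counts per kb on those models, 0.701 counts would fall on the own bases of *Inpp5d* and 0.790 on those of *Btk*. The same density gives 3.26 counts for *Tespa1* and 2.85 for *Lat2*, where 1 and 2 were seen, but 10.4 for *Lcp2* and 13.7 for *Plcg2*, where 339 and 114 were seen.

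Of the 10 genes, 5 passed the low-count filter, 3 were called lower with spermidine and 0 higher, since all 5 had negative log2 fold changes. Over all 7836 tested genes, 3.99% were called lower and 24.8% higher. Both spermidine libraries lay below both controls for all 5 tested genes, as they did for 29.6% of all tested genes. The median log2 fold change of the 5 genes was -2.57, or -2.47 with *Tespa1* and *Lat2* set to the bound given by the floor of 3 counts over the group, against 0.23 over all tested genes. *Tespa1*, *Lat2* and *Ptpn6* passed the filter only through the controls, which favoured a fall, so these counts and medians describe the 5 genes and support nothing about the set. *Lcp2* and *Plcg2* reached the filter level of 2.26 CPM in all 4 libraries.

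Per kb of own bases, the order of mean control levels was *Lcp2* (572 CPM per kb), *Plcg2* (90.8), *Ptpn6* (60.2), *Tespa1* (21.3), *Vav1* (15.8), *Lat2* (6.07), *Inpp5d* (1.32), *Btk* (0.583) and *Syk* (0.389), with *Lat* at 0. The values of the first 4 genes did not overlap between neighbours in the 2 controls. However, all control counts of *Ptpn6* lay on the 209 bases of its downstream first exon, out of 420 own bases. Over that exon alone, *Ptpn6* would stand above *Plcg2* in both controls and in spermidine replicate 1. *Vav1*, with 5.27 and 26.3, overlapped both *Tespa1* and *Lat2*, and the last 3 genes with counts had 2 to 4 each. The own bases of *Vav1* are stretches of only 21 and 34 bases, so its level per kb is uncertain. In the spermidine libraries, *Lcp2* stood first with 118 and 34.7, *Plcg2* followed with 30.2 and 13.2, and *Ptpn6* had 19.06 and 5.08. On all own bases, these 3 genes kept the order of the controls within each spermidine library, but the order of the whole set did not hold. By the same measure *Inpp5d*, at 20.8 CPM per kb from 4 counts, stood above *Ptpn6* in spermidine replicate 1. *Btk* had 13.8 there from 3 counts.

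Promoter sequences from RefSeq (GRCm38.p6) were at hand for 8 of the 10 genes, with 9 windows. They are shown for *Lcp2* and *Plcg2*, which fell together, and for the upstream start of *Ptpn6*, whose first exon took 0 control counts. Each line is the 250 bases before the annotated start, 5′ to 3′ on the gene's strand, with matches to GATA motif letters (AGATAA or TGATAA, either strand) in capitals. The *Lcp2* window is chr11:34046678-34046927 (plus strand), and its start site lies 273 bases upstream of the deposited row. The *Plcg2* window is chr8:117498025-117498274 (plus strand), and the *Ptpn6* window chr6:124738710-124738959 (minus strand).
Lcp2: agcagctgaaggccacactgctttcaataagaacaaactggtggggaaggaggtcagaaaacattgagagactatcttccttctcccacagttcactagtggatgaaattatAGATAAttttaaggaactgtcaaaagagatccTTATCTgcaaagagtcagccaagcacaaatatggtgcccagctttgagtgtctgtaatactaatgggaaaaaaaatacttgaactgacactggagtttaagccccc
Plcg2: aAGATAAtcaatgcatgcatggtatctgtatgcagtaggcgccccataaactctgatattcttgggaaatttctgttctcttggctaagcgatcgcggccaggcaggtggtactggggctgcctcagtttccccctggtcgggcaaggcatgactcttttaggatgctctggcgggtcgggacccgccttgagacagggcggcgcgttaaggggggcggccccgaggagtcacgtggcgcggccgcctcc
Ptpn6: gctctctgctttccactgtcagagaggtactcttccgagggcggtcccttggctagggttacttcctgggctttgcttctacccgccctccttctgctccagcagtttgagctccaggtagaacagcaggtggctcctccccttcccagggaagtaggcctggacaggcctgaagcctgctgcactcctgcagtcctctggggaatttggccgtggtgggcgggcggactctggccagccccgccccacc
The *Lcp2* window held 2 GATA matches that did not overlap, the *Plcg2* window held 1, and the *Ptpn6* window none. Of the 9 windows, 4 held a GATA match, in *Lcp2*, *Plcg2*, *Inpp5d* and 1 of 2 *Syk* windows, against 16.6% of 32851 promoter windows of the same length. The letters GAGGAA, a core of sites for the blood cell factor PU.1, were in 4 windows (*Lat*, *Vav1*, *Inpp5d* and 1 of *Syk*), against 23.3% of all. The RUNX letters TGTGGT were in 0 of 9, against 14.0% of all. Both strands were searched, and a match is a description of these letters.

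Of 105 other genes of immune receptor signalling, 64 had at least 300 own bases and 32 were tested, of which 6 were lower and 1 higher with spermidine, beside 3.99% and 24.8% of all tested genes. Their median log2 fold change was -0.56. Genes called lower stood in 4 of 7 roles: 1 receptor chain, 1 adaptor, 3 effectors and 1 phosphatase.

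Among receptors, *Fcer1g*, the signalling chain shared by IgE, IgG and collagen receptors, had 35 and 23 counts with spermidine, against 1799 and 1186 in controls. It fell by 2.995 on the log2 scale (± 0.66 SE, adjusted p = 0.00965). *Tyrobp*, the related chain of myeloid cells, had 20 and 7 against 345 and 216 and was not called (-1.68 ± 0.84, adjusted p = 0.172). The ligand-binding and beta chains of the mast cell IgE receptor, *Fcer1a* and *Ms4a2*, were at 0 in all 4 libraries on 26 and 131 own bases. The inhibitory receptor *Fcgr2b* had a log2 fold change of -0.03 ± 0.87. Of the Src family kinases and their regulators only *Csk*, which inhibits them, was tested (1.62 ± 0.84, adjusted p = 0.184). *Lyn* had no own bases, and no other Syk or Tec family kinase passed the filter.

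Of 9 tested adaptors, *Hcls1*, a substrate of Syk in blood cells, fell by 2.18 (± 0.63 SE, adjusted p = 0.0295), with 162 and 107 counts with spermidine against 3063 and 5042. *Blnk*, the B cell counterpart of Slp-76, went the other way, with 56 and 10 counts with spermidine against 6 and 3 in controls (5.61 ± 1.23, adjusted p = 0.00902). *Blnk* was thus higher in 2 of 2 spermidine libraries, where its levels were 64.0 and 7.12 CPM, against 0.869 and 0.434 CPM in controls. Both control levels were under 2.26 CPM, the filter level, so *Blnk* was tested only because it was high with spermidine. That favoured a rise. Most of its counts, 56, were in spermidine replicate 1, the library with counts on 868 of 1381 olfactory and vomeronasal receptor models. *Grb2* (-1.87 ± 0.95) and *Skap2* (-1.26 ± 0.54) were not called.

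Of 11 tested effectors, *Was*, the actin regulator downstream of Vav1, fell by 2.85 (± 0.69 SE, adjusted p = 0.0144), with 59 and 25 counts with spermidine against 1952 and 2125. *Pik3ap1*, an adaptor for phosphoinositide 3-kinase, fell by 3.15 (± 0.78 SE, adjusted p = 0.0159), with 34 and 9 against 1435 and 1128. *Rac2*, the blood cell Rac and the third gene of this role to pass, was named after its values were seen and fell by 1.99 (± 0.54 SE, adjusted p = 0.0232). Among phosphatases, *Dusp2*, which acts on MAP kinases in leukocytes, had 23 and 9 counts with spermidine against 807 and 811 and fell by 2.95 (± 0.74 SE, adjusted p = 0.0161). The leukocyte phosphatase *Ptprc*, or CD45, had 3 and 0 counts with spermidine and 0 and 0 in controls on 196 own bases.

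**Figure D3:**
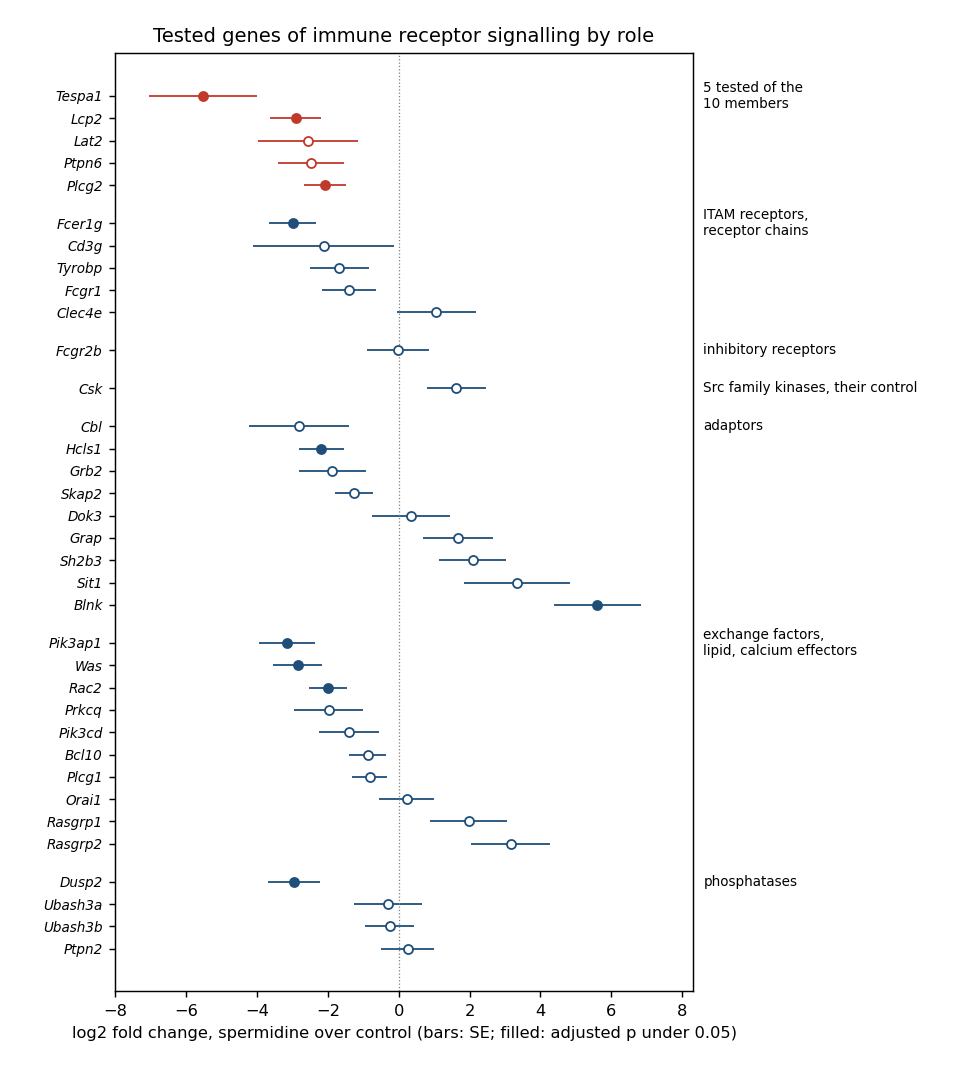
Log2 fold change, spermidine over control, with its SE, for the tested members (red) and tested genes of the other roles (blue; 2 genes are not shown), filled where the adjusted p was under 0.05. The 5 members lie between -5.53 and -2.09, while the other genes run from -3.15 for *Pik3ap1* to 5.61 for *Blnk*.

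Of 12 general leukocyte markers, 6 were tested, and *Plek*, *Cd53* and *Cd48* were lower and 0 higher. With spermidine the summed level of the list was 280 and 69.8 CPM, against 1594 and 1245 CPM in controls. *Plek* alone gave 93.8 and 41.3 CPM of these sums with spermidine and 1147 and 846 CPM in controls. *Coro1a* (-0.32 ± 0.88 SE), *Arhgap45* (-0.56 ± 0.94 SE) and *Cd52* (0.97 ± 1.30 SE) were tested and not called. *Spi1* and *Laptm5* were at 0 in all libraries on 407 and 85 own bases, and *Runx1* had no own bases. Of 14 mast cell and basophil markers, 5 were tested, 2 were lower (*Cpa3* and *Gata2*) and 0 higher, with a summed level of 201 and 463 CPM against 580 and 447 CPM. *Slc18a2* alone, which was not called, gave 435 of the CPM in spermidine replicate 2, and without it, a sum added after the values were seen, the list had 126 and 27.8 CPM with spermidine and 377 and 262 CPM in controls. Of 14 macrophage and monocyte markers, 7 were tested and 5 were higher, with 540 and 256 CPM against 128 and 142 CPM. *Cd68* (-1.82 ± 0.68 SE) and *Fcgr1* (-1.41 ± 0.77 SE) had negative log2 fold changes and were not called, while *Adgre1* and *Csf1r* were at 0 on 2 and 18 own bases. T and natural killer cell markers had 0 calls among 2 tested, and B cell markers 1, *Blnk*. Their summed levels were 66.3 and 6.41 CPM against 2.46 and 39.5 CPM for T and natural killer cells, and 176 and 13.5 CPM against 1.16 and 1.88 CPM for B cells. Both sums were highest in spermidine replicate 1, the library with counts on 868 of 1381 receptor models. *Cd79a* gave 91.5 and *Blnk* 64.0 of the 176 CPM there, and *Cd79a* had 0 counts in spermidine replicate 2. The megakaryocyte list had 1 gene lower of 3 tested, *Itga2b*, with 186 and 106 CPM against 837 and 684 CPM. *Itga2b* alone gave 156 and 93.2 CPM of these sums with spermidine and 832 and 674 CPM in controls. *Pf4* (2.24 ± 0.95 SE) and *Ppbp* (0.05 ± 0.93 SE) were tested and not called. Of 8 tested markers of granulosa and theca cells, the follicle's somatic cells, 7 were higher, with 2332 and 7016 CPM against 162 and 134 CPM. *Cyp11a1*, which was not called (0.55 ± 0.60 SE), gave 136 and 111 CPM of the control sums. Oocyte markers were higher for 6 of 6 tested, with 182 and 2385 CPM against 1.74 and 3.04 CPM. Calls were also higher for 7 of 10 tested stroma markers (1 lower), 4 of 4 of surface epithelium, 3 of 3 of endothelium and 3 of 5 erythroid markers (1 lower). Over all tested genes, 24.8% were higher and 3.99% lower. Every tested marker of oocytes, surface epithelium and endothelium was under 2.26 CPM, the filter level, in both controls. Such genes were tested only where spermidine levels were high, so a rise was favoured. The same held for *Foxl2*, *Fshr*, *Wt1*, *Cyp17a1* and *Mrc1*, among others. *Cd48*, with 7 and 0 counts with spermidine, was tested through its controls, which favoured a fall. The part of these cell types in the values of the 10 genes was not tested, and in bulk RNA fewer cells of a type and less RNA per cell cannot be told apart.

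The 5 tested genes outside the set with the most similar pattern over the 4 libraries, by root mean square distance of centred log2 CPM from the mean of the 5 members, were *Galnt7* (0.0170), an unnamed RefSeq model transcript, *Csf2rb2* (0.0883), *Cetn4* (0.0899) and *Dusp2* (0.136). *Csf2rb2*, a receptor chain for interleukin 3 with a near copy in *Csf2rb* that makes its value uncertain, had 11 and 5 counts with spermidine against 471 and 353 (-3.02 ± 0.82, adjusted p = 0.0223). *Galnt7*, a glycosyltransferase gene, had 1 and 0 against 48 and 41 and was not called (adjusted p = 0.0967). *Cetn4* and the model transcript also had 1 and 0 counts with spermidine, against 48 and 35 and 51 and 42 in controls. Their distances and that of *Galnt7* thus depend on the prior count of 2, as do the levels of *Tespa1* and *Lat2* in the mean. With 4 libraries such likeness is only a description.

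Direction was the same under every alternative in which a gene could be tested, but the calls were not. *Lcp2* was lower in 16 of 16 alternative settings and called in 11, with log2 fold changes from -4.04 to -2.15 and adjusted p from 0.000313 to 0.269. *Plcg2* was lower in 16 of 16 and called in 8, from -2.78 to -1.15. *Tespa1* was lower in 13 of 13 and called in 9, from -9.79 to -4.17. *Lat2* was lower in 13 of 13 and called in 0, from -7.79 to -1.19, and *Ptpn6* was lower in 15 of 15 and called in 0, from -3.55 to -1.51. Without spermidine replicate 1 the log2 fold change of *Lcp2* was -4.04 ± 0.30 (SE), and without spermidine replicate 2 it was -2.22 ± 0.46 (SE).

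**Figure D4:**
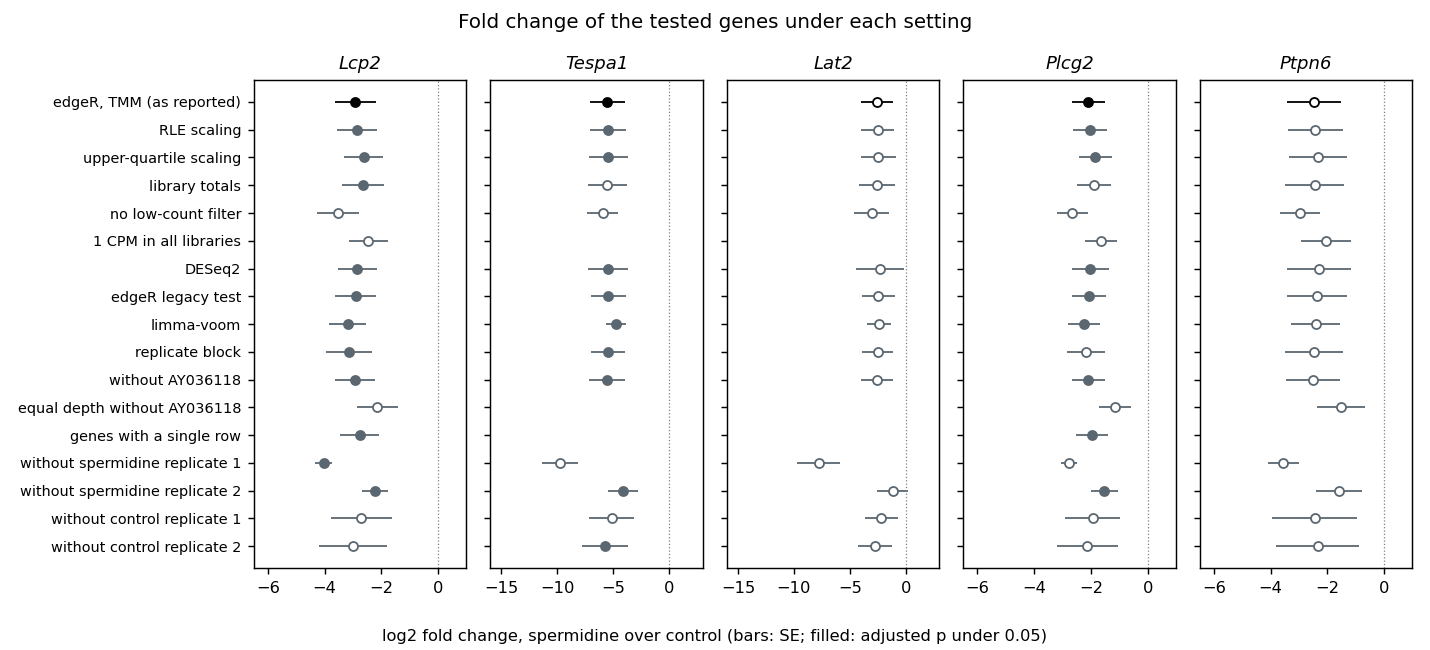
Log2 fold change, spermidine over control, with its SE, of the 5 tested genes under the reported fit (top) and each alternative, filled where the adjusted p was under 0.05. Every point is below 0, and leaving out spermidine replicate 1 gives the lowest value for each gene.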

How the data were processed

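RNA-seq counts were analysed for 2 spermidine and 2 control libraries. The authors deposited raw read counts per RefSeq transcript row, with an exon length per row as another column, per the file headers. The submitters' processing notes name HISAT2, DESeq2 and the build mm9 without roles. The row coordinates fitted GRCm38 genes, with 88.5% of matched rows inside the gene's span, and GRCm38 is used here. No source used here gives the counting program or its strand setting. Of 106519 rows, 80.8% matched a RefSeq symbol, and counts were summed to 53291 features. Rows without a match held 4.45% and 1.13% of spermidine counts and 1.72% and 1.63% of control counts, and stayed as features of their own.

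Differences were tested with edgeR 4.0.16 (R 4.3.3), using the quasi-likelihood test, TMM scaling and filterByExpr (count minimum 10, total minimum 15), with Benjamini-Hochberg adjustment over 7836 genes and calls at adjusted p under 0.05. Log2 CPM used a prior count of 2. Ratios were compared by exact permutation, two-sided. Intervals are exact at 95% and cover counting error only. Alternatives used DESeq2 1.42.0, limma 3.58.1 and other scalings, filters and sets of libraries. Run on simulated counts with known changes, the same fit gave the right sign for nearly all tested genes with a change but called only a minority of them. Far fewer genes were changed there than were called in these data, which makes the adjustment stricter, so that share does not carry over. Genes that were not called may still differ. The replicates of each group differed by more than sampling noise and were counted separately. The spermidine libraries were less alike than the controls. Log2 CPM correlated at 0.73 and 0.97 between replicates, and the log2 ratio between replicates had an SD of 1.87 and 0.80.

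The members, gene lists and motifs were chosen with earlier results of these data known. Named genes were all 10 members, in each role of the signalling list up to 2 genes called higher, 2 called lower and the gene of highest mean level, and the 5 genes most alike in pattern whose mean log2 CPM reached 1. Some genes of the signalling list, 1 of them picked by this rule, are counted but not reported here by name. *Tyrobp*, *Grb2*, *Skap2*, *Rac2* and *Ptprc* were named after their values were seen.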

Additional observations from a re-analysis of the deposited data

How the results depend on the processing

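The 5 tested genes were lower with spermidine under every alternative in which they could be tested, but their calls depended on the processing. Members called lower numbered 1 with scaling by library totals, against 3 as reported. Without a low-count filter 0 members, 0 signalling genes in either direction and 0 of all genes in either direction were called by edgeR, with 4 members, 15 signalling genes and 4255 genes in all at an unadjusted p under 0.05. With a filter of 1 CPM in all libraries, 230 genes were called higher and 45 lower, with 0 of 3 members and 0 signalling genes (3 and 8 at an unadjusted p under 0.05). At equal depth without AY036118, 766 genes were higher and 86 lower, the member median was -1.51, and 0 of 3 members and 0 signalling genes were called (1 and 5 unadjusted). DESeq2, limma-voom and the legacy form of the edgeR test, the last of which was chosen after seeing the data, each called 3 members. Leaving out each replicate in turn gave 0 to 2517 genes higher and 0 to 1208 lower, 0 to 3 members lower with a median of -4.04 to -1.59, and 0 to 7 signalling genes higher and 0 to 6 lower. Each such fit leaves 1 sample in a group, which is assumed to vary like the other group. Without control replicate 1, 0 genes were called, with 1926, 2 members among them, at an unadjusted p under 0.05. The cause of these changes was not tested.

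The deviations of same-numbered libraries from their group means correlated at -0.03 over 7836 genes. With 1 difference between replicates in each group, this value cannot tell whether same-numbered libraries were processed together. With a replicate block, 94 genes were lower in all, 2 members were lower (*Plcg2* had adjusted p = 0.0595), and 2 signalling genes were higher and 4 lower. Own bases under 300 limit *Lat*, *Vav1*, *Inpp5d* and *Btk*, and spermidine depth also limits *Vav1*. *Syk*, *Btk* and *Inpp5d* had 2 to 4 counts in the controls together, at their greater depth.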

Other observations

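The comparison of the control libraries with each other was chosen after the values were seen. Of 41 signalling genes with at least 10 control counts, 5 were over 5 times higher in control replicate 2 than in control replicate 1 and 0 the other way. That is 12.2% of these genes, against 5.12% of 8557 features with as many control counts (438), and the difference was not tested. *Cd3g*, a T cell receptor chain, had 136 counts in control replicate 2 and 0 in control replicate 1. *Sit1* had 17 and 0, *Rasgrp1* 84 and 8, and *Grap* 85 and 11. None of the 6 members with at least 10 control counts passed the same limit, since *Vav1*, with 10 and 2, reached 5 times exactly. The cause was not tested.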
